A study of Mus musculus with 4 samples.

Results

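Among cells isolated from injured mouse Achilles tendon, 219 barcodes carried the RNA of mature skeletal muscle. They were chosen by their own RNA: Acta1, Ckm, Tnnc2, Tnnt3 and Mylpf together had to make up at least 5% of a barcode's unique molecular identifiers (UMIs, counted transcripts). A barcode also needed 500 or more genes and 1000 or more UMIs, of which mitochondrial genes made less than 15%. Of 18313 barcodes that passed these 3 filters in 3 libraries, 219 met the muscle rule, 110 in the Prox1 eGFP library of day 7, 95 in the Prox1 eGFP library of day 21 and 14 in the Vegfc CRE library of day 7. They are called members below, and the remaining 18094 barcodes are called other barcodes.

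The series held 4 single-cell libraries, 3 from the Prox1 eGFP line (day 0 untreated, day 7 and day 21 after B/T) and 1 from the Vegfc CRE line (day 7 after B/T). B/T is the labels' abbreviation for the injury treatment, and the uninjured tendon served as control. Each library pooled cells of 5 tendons, so each group is 1 sample and no difference between groups has a replicate check. The protocol text describes a flow-cytometry sort for Prox1-expressing cells, whereas the cell type label of all 4 libraries reads unsorted. Age, sex, further alleles and the promoter behind the Cre are not given in the sources used here. Intervals below are 95% intervals that cover counting error only: exact Poisson for levels, Clopper-Pearson for shares and conditional binomial for ratios. For a count of 0, the limit given in its place is that of 3 counts over the same total. Levels are UMIs summed over members and scaled to 1000000 UMIs (CPM).

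A skeletal muscle fibre is a long cell with many nuclei whose contractile units, the sarcomeres, are built from actin, myosin and the troponin and tropomyosin regulators. Most of these proteins come in fast and slow forms made from separate genes. Slow fibres carry the myosin heavy chain of Myh7 and depend on oxidative metabolism, whereas the fast fibres of mice carry Myh2, Myh1 or Myh4, with Myh4 in the most glycolytic ones. Pax7 marks satellite cells, the stem cells that lie on the fibre, and Pecam1 encodes a junction protein of endothelial cells.

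The series held 19003 barcodes that passed in all 4 libraries. Other barcodes had median depths of 8409 UMIs at Prox1 eGFP day 7, 7543 at day 21 and 8556 in Vegfc CRE. The day 7 Prox1 eGFP matrix lists 27998 genes and the others 32285, and the 27040 genes shared by gene identifier were used. Between 6 and 10 barcode sequences recurred in any pair of these 3 libraries, and no member's barcode was among them. A doublet caller marked 0 barcodes at Prox1 eGFP day 7, where it did not work, 1.36% at day 21 and 1.23% in Vegfc CRE. It called 0 of the 219 members.

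Below, 4 upstream windows are shown: those of Acta1 and Mylpf, which belong to the rule, of Tnnc1, a slow form called higher at day 21, and of Csrp3, the sarcomere gene with the highest ratio in its list. Acta1 encodes the actin of skeletal muscle, Mylpf the regulatory light chain of fast myosin, Tnnc1 the troponin C of slow fibres and Csrp3 a Z-disc LIM protein. Each window holds the 250 bases before a RefSeq transcription start (GRCm38.p6, the mm10 build), 5′ to 3′ on the gene's strand, and none overlaps an exon of GENCODE M21. They lie at chr8:123894776-123895025 (minus strand) for Acta1, chr7:127211358-127211607 (plus) for Mylpf, chr14:31208062-31208311 (plus) for Tnnc1 and chr7:48848052-48848301 (minus) for Csrp3. The Mylpf window falls in an intron of a longer annotated Mylpf transcript. Capitals mark CANNTG, the E-box letters that muscle basic helix-loop-helix factors can bind.
Acta1: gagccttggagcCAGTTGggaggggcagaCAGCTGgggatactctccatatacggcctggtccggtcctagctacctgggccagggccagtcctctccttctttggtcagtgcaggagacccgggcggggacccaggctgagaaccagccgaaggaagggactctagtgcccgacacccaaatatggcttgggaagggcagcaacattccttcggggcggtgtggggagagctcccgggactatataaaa
Mylpf: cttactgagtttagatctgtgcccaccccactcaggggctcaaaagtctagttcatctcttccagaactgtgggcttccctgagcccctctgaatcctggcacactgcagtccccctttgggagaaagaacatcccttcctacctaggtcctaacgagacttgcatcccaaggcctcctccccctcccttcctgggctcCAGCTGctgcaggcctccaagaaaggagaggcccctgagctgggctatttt
Tnnc1: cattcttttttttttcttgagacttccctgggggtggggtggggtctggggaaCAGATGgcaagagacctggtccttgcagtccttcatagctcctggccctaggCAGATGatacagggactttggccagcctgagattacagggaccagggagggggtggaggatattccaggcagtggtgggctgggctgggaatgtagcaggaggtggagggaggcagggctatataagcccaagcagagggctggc
Csrp3: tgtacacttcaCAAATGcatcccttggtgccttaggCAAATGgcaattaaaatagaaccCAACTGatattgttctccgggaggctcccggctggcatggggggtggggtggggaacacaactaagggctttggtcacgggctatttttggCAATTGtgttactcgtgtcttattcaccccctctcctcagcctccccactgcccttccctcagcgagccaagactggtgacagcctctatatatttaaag
The same letters were searched in the windows of 36 matched genes out of 45 rule, fast, slow and sarcomere genes. CANNTG reads the same on both strands, and it stood in 31 of 36 windows (86.1%) against 66.0% of 26994 genes with a window. Its form CAGCTG, counted within CANNTG, was in 38.9% against 12.8%. The MEF2 motif was in 16.7% against 3.01% and the CArG box bound by SRF in 13.9% against 1.40%, while TATAAA on the forward strand was in 13.9% against 8.13%. A match describes letters in the window and no binding was measured.

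The rule genes are given as a description, since they chose the members. Acta1 (ENSMUSG00000031972, chromosome 8, 123891769 to 123894751, positions of GENCODE M21 on mm10) stood at 57605 CPM at Prox1 eGFP day 7, 56115 at day 21 and 48348 in Vegfc CRE. Ckm (ENSMUSG00000030399, chromosome 7, 19404776 to 19422841), the muscle creatine kinase, stood at 32116, 17985 and 16016 CPM in the same order. Acta1 and Ckm were present in every member, whereas Tnnc2 (chromosome 2, 164777161 to 164779967), fast troponin C, was present in 103 of 110, 75 of 95 and 14 of 14 members. Tnnt3 (chromosome 7, 142498836 to 142516009), fast troponin T, stood at 30549, 23786 and 23949 CPM and Mylpf (chromosome 7, 127208890 to 127214298) at 26917, 31721 and 32608 CPM. Members took up 96.0%, 91.3% and 73.1% of all UMIs of the 5 genes among passing barcodes.

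Members were 2.26% (1.86 to 2.71) of passing barcodes at Prox1 eGFP day 7, 1.49% (1.21 to 1.82) at day 21 and 0.198% (0.109 to 0.333) in Vegfc CRE. The untreated Prox1 eGFP library had 0 of 690, which allows a share of up to 0.435%. Fewer muscle fibres in the tissue and fewer recovered in the preparation cannot be told apart. The median rule-gene share of members was 16.7%, 13.4% and 14.9%, and that of other barcodes was 0.0167% at Prox1 eGFP day 7 and 0 in both other libraries. The member nearest above the threshold stood at 5.06%, 5.17% and 6.84%, and the barcode nearest below it at 4.94%, 4.83% and 4.70%. Few barcodes lay between 2% and 5%: 13, 9 and 2.

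Depth differed between the libraries' members, with medians of 18493, 5345 and 2227 UMIs. Median genes per member were 2539.5, 1322 and 692.

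**Figure D1:**
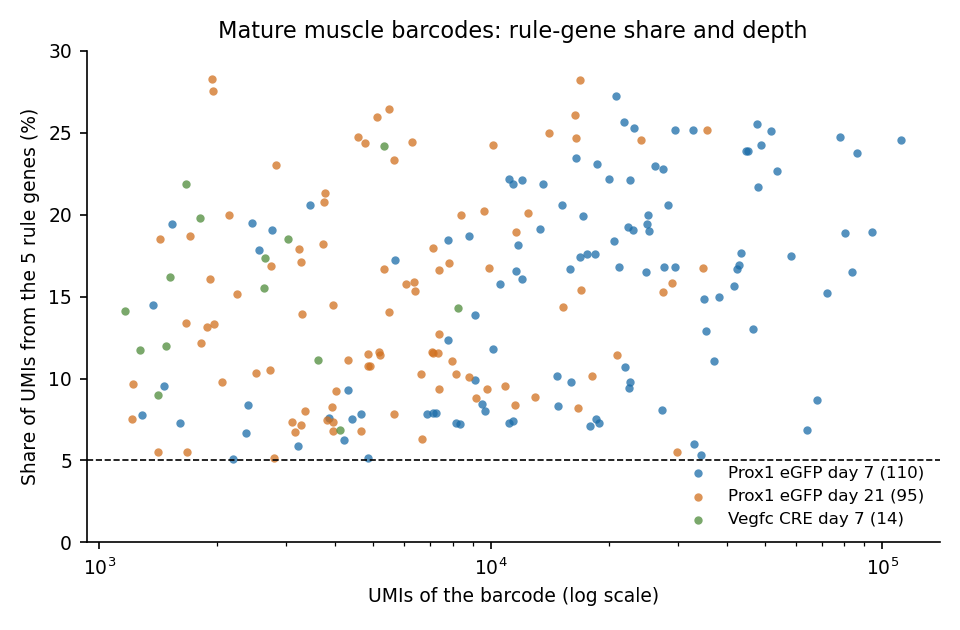
Each point is a member, with its UMIs on a log axis and the share of its UMIs from Acta1, Ckm, Tnnc2, Tnnt3 and Mylpf in percent; colours give the library and the dashed line the threshold of 5%. Members of Prox1 eGFP day 7 reach the greatest depths, up to 111537 UMIs, while those of Vegfc CRE stay at or below 8237.

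The label of mature muscle was checked on genes outside the rule. At least 10-fold more CPM in members than in other barcodes of each of the 3 libraries was found for 157 genes, 5 of them the rule genes; this comparison uses the same cells as the rule and is a description. The 15 with the highest mean level were Tpm1, Myl1, Tnni2, Aldoa, Tpm2, Car3, Des, Tcap, Eno3, Pvalb, Tnnt1, Myh4, Cox6a2, Myl3 and Pgam2. They encode contractile proteins and their scaffolds (Tpm1 and Tpm2, Myl1, Tnni2, Des, Tcap), glycolytic enzymes (Aldoa, Eno3, Pgam2), carbonic anhydrase 3 (Car3), parvalbumin (Pvalb) and a muscle subunit of cytochrome oxidase (Cox6a2). Tpm1 alone stood at 30487, 25217 and 29204 CPM in members against 174, 222 and 409 CPM in other barcodes.

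Fibre type was first read from the 6 myosin heavy chain genes measured for it. These are 3′ counts of whole transcripts, so shares were taken between genes without a length correction. Myh4 (ENSMUSG00000057003, chromosome 11, 67238029 to 67260446) made 87.0% (86.2 to 87.8) of 6894 Myh UMIs at Prox1 eGFP day 7, 57.4% (53.9 to 60.8) of 821 at day 21 and 93.7% (90.6 to 96.0) of 349 in Vegfc CRE. The last value rests on a lone barcode that held 95.4% of the Myh4 UMIs there.

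Myh1 made 6.57%, 18.6% and 6.02% of Myh UMIs and Myh2 made 1.58%, 8.53% and 0.287%. Myh7 (ENSMUSG00000053093, chromosome 14, 54970684 to 54994626) made 3.99% at Prox1 eGFP day 7 and 14.4% at day 21, where 55.1% of its UMIs came from 1 member. In Vegfc CRE Myh7 had 0 of 349 UMIs. The forms made in development were scarce: Myh3 (embryonic) had 1 UMI at each Prox1 eGFP time, and Myh8 (perinatal) had 60 UMIs at day 7, 85% of them in 1 member, and 8 at day 21. Equal weight per member was given to members with at least 5 Myh UMIs, 89 of 110, 31 of 95 and 5 of 14. It gave Myh4 shares of 69.2%, 38.9% and 46.9%, lower than the sums in each library and in another order.

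The members with at least 5 Myh UMIs were sorted by their leading isoform. At Prox1 eGFP day 7, 89 members had at least 5 Myh UMIs; Myh4 led 64 of them, Myh7 15, and Myh1 and Myh2 5 each. At day 21, 31 members had that many; Myh4 led 12, Myh1 10, Myh7 5 and Myh2 4. Of 5 such members in Vegfc CRE, Myh1 led 3 and Myh4 2. The leading isoform made at least 90% of Myh UMIs in 73 of 89, 18 of 31 and 2 of 5 of these members.

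The second reading used 5 pairs of fast and slow forms: Tnnc2 and Tnnc1, Tnni2 and Tnni1, Tnnt3 and Tnnt1, Mylpf and Myl2, and Myl1 and Myl3. The slow share is the slow forms' part of a barcode's UMIs of these 10 genes, and the cuts at 5% and 50% were set after the values were seen. Each class is a range of this score and not a cell type. Of the fast forms, 3 are rule genes, so the rule favours fast fibres, and slow members pass it through Acta1 and Ckm.

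At Prox1 eGFP day 7, 68 members were fast (slow share under 5%), 9 mixed and 33 slow (at least 50%), or 61.8% (52.1 to 70.9), 8.18% (3.81 to 15) and 30% (21.6 to 39.5). At day 21 the counts were 39, 31 and 25, or 41.1% (31.1 to 51.6), 32.6% (23.4 to 43.0) and 26.3% (17.8 to 36.4). Vegfc CRE had 12 fast, 2 mixed and 0 slow members, and 0 of 14 allows a slow share of up to 21.4%. These shares describe 1 library per time and carry no test between the times.

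Members near the cuts were uneven between the times. A slow share between 2% and 10% was found in 3 members at Prox1 eGFP day 7 and 20 at day 21, and one between 40% and 60% in 7 and 0. Within the slow class, 24 of 33 members at day 7 stood between 50% and 90% and 9 at or above 90%, whereas at day 21 the counts were 2 and 23 of 25. Replacing Tnnc2, Tnnt3 and Mylpf in the rule with their slow counterparts chose 110, 83 and 13 barcodes, of which 106, 79 and 12 were members.

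**Figure D2:**
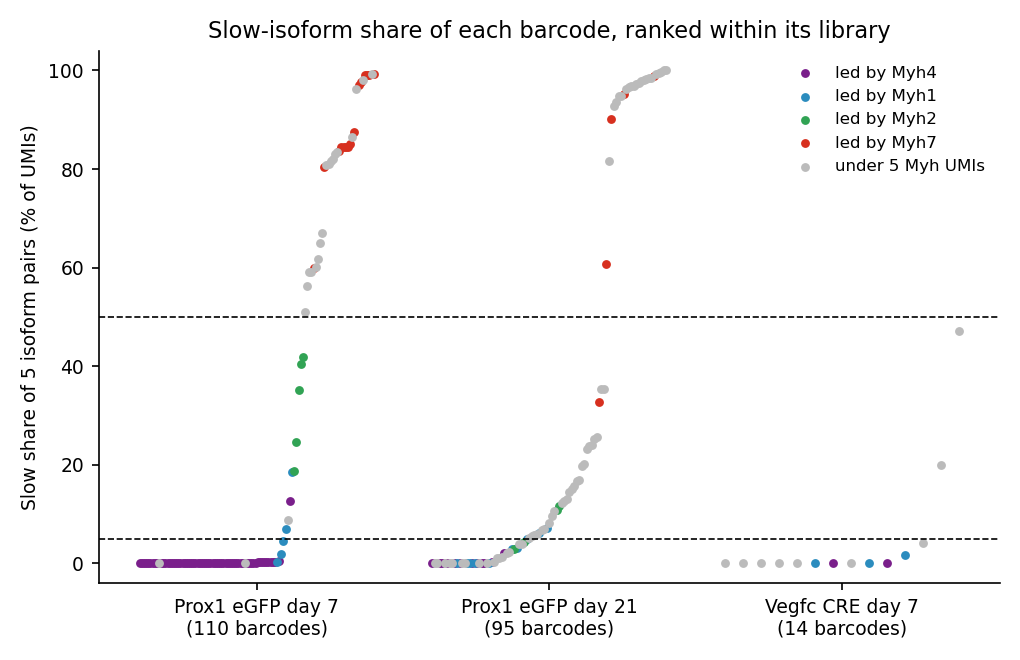
Each point is a member, ranked by its slow share (percent of the UMIs of 5 isoform pairs, vertical axis) within its library; colours give the myosin heavy chain that leads it, grey stands for under 5 Myh UMIs, and dashed lines mark 5% and 50%. Points led by Myh7 lie above 50% except 1 at day 21, and points led by Myh4 lie below 50%.

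Outside the pairs, Tpm3, Tpm1 and Pvalb followed the classes at both times, whereas Mybpc1, a slow-fibre gene, did so at day 7 only. Mybpc1 stood at 667 CPM in fast and 1106.5 in slow members of Prox1 eGFP day 7, and at 582 and 478 CPM at day 21. Tpm3, the slow tropomyosin, stood at 20411 CPM in slow members of Prox1 eGFP day 7 and 24.7 in fast ones, and at 32218 and 64.6 CPM at day 21. Tpm1 went the other way, with 38320 CPM in fast and 1592 in slow members at day 7 and 38919 and 642 at day 21. Pvalb, a calcium buffer of fast fibres, stood at 4789 CPM in fast and 13.8 in slow members at day 7 and at 3349 and 18.9 at day 21.

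Myh4 itself was at 3018 CPM in fast members of Prox1 eGFP day 7, 1323 at day 21 and 9499 in Vegfc CRE. It was at 0 in the slow and the mixed members of day 21. Myh7 had no UMI in the fast members of any of the 3 libraries and stood at 690 CPM in slow members of day 7 and 321 at day 21. Mb, myoglobin, stood at 7318 CPM in slow and 2328 in fast members of day 7.

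**Figure D3:**
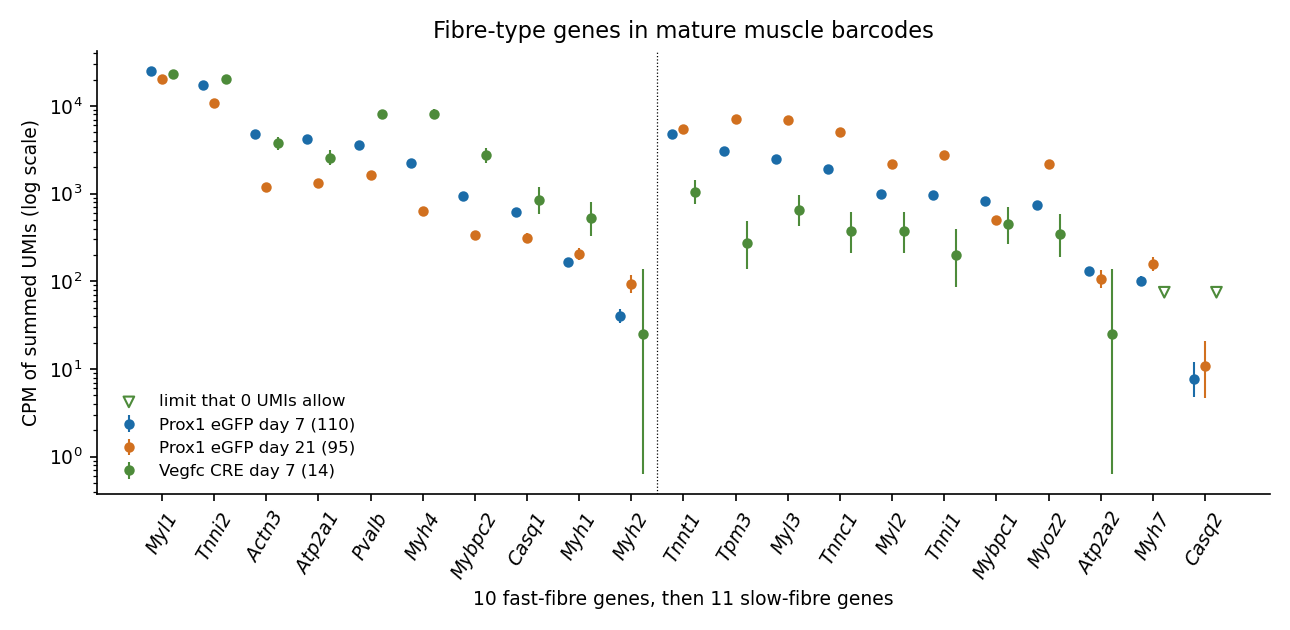
Levels of the 10 fast-fibre and 11 slow-fibre genes compared, in CPM of UMIs summed over members (log axis), by library, with 95% Poisson bars; the open triangle is the limit that 0 UMIs allow. The day 21 point lies above the day 7 point of Prox1 eGFP for 9 of the 11 slow-fibre genes, and below it for Mybpc1 and Atp2a2.

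Pax7 and Pecam1 RNA was seen in few members. Pax7 (chromosome 4, 139737062 to 139833528) had a UMI in 4 of 110 members at Prox1 eGFP day 7 (3.64%, 1.00 to 9.05), 2 of 95 at day 21 (2.11%, 0.256 to 7.40) and 0 of 14 in Vegfc CRE. Other barcodes of these libraries had Pax7 in 74.1%, 48.3% and 0.327%. Endothelial-type barcodes, defined here by at least 2 Cdh5 UMIs and no Cdh15, should lack Pax7 and had it in 3.43% at Prox1 eGFP day 7 (median depth 19264 UMIs) and 3.52% at day 21 (9856 UMIs). The interval of the members' share held this background value at both times, at member depths of 18493 and 5345 UMIs.

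Pecam1 (chromosome 11, 106654217 to 106750628) had a UMI in 6 of 110 members at Prox1 eGFP day 7 (5.45%, 2.03 to 11.5), 3 of 95 at day 21 (3.16%, 0.656 to 8.95) and 0 of 14 in Vegfc CRE. Other barcodes had it in 22.4%, 33.4% and 13.9%. Myogenic-type barcodes, with at least 2 Cdh15 UMIs and no Cdh5, had Pecam1 in 1.47% (0.979 to 2.12) at day 7 and 1.26% (0.631 to 2.25) at day 21, at median depths of 8663.5 and 8166 UMIs. At day 7 the members' interval lay above the value of 1.47%, and the intervals overlapped only from 2.03 to 2.12. At day 21 the members' interval held the value of 1.26%. Depth was unlike in these comparisons, with member medians of 18493 and 5345 UMIs. No member held both Pax7 and Pecam1. Thinned to 1000 UMIs each, 0 members kept Pax7 and 1 kept Pecam1 at day 7, and 1 and 2 did at day 21.

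The few members with these RNAs differed from the rest in other genes. The 4 with Pax7 at Prox1 eGFP day 7 held 2 to 12 Pax7 UMIs and 20 to 68 UMIs of the satellite-cell list without Des, against a median of 1 and at most 10 in members with neither gene. All 4 held Chodl, Myf5 and Cdh15 UMIs as well. The 2 at day 21 held 28 and 35 such UMIs, against a median of 0 and at most 26 in members with neither gene. These sums include the Pax7 UMIs that picked the members.

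The 6 with Pecam1 at Prox1 eGFP day 7 fell into 3 patterns. Of these, 3 also held UMIs of Lyve1, Flt4 and Mmrn1, lymphatic endothelial genes, with 55 to 209 UMIs of the endothelial list. The next 2 held Cdh5 and Emcn with 329 and 420 Col1a1 UMIs, 168 and 302 Dcn UMIs and 18 and 30 Tnmd UMIs, and together these barcodes held most of the fibroblast RNA counted in members. The remaining barcode had 1 Pecam1 UMI and no other endothelial UMI. At day 21, 2 of the 3 held Cldn5, Lyve1, Flt4 and Mmrn1 and the third had 1 endothelial UMI.

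Prox1 encodes the homeodomain factor named in the mouse line and is also known from slow muscle. It had a UMI in 30% (21.6 to 39.5) of members at Prox1 eGFP day 7, 27.4% (18.7 to 37.5) at day 21 and 0 of 14 in Vegfc CRE, against 98.3%, 87.8% and 1.15% of other barcodes. Its level by class was 21.2 CPM in fast, 162 in mixed and 149 in slow members at day 7 and 45.0, 81.8 and 94.4 CPM at day 21. In the mixed class of day 7, 71.9% of Prox1 UMIs came from a member that also held 209 endothelial UMIs and 1195 Malat1 UMIs. The interval of slow members of day 7 (112 to 194) lay above that of fast members (15.3 to 28.6), whereas at day 21 the intervals overlapped (52.8 to 156 and 25.7 to 73.0).

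Nuclear and mitochondrial RNA were low in most members. Malat1, a long non-coding RNA kept in the nucleus, had 0 or 1 UMI in 82 of 110 members at Prox1 eGFP day 7 (74.5%), 75 of 95 at day 21 (78.9%) and 11 of 14 in Vegfc CRE (78.6%). Among other barcodes, 99.4%, 98.9% and 92.9% had at least 10 Malat1 UMIs. The median mitochondrial share of members was 0.0163% at Prox1 eGFP day 7 and 0.202% at day 21, against 3.19% and 2.61% in other barcodes. Vegfc CRE differed, with 4.89% in members and 4.71% in other barcodes.

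Nuclear-encoded genes of mitochondrial energy supply were abundant in the same members. Cox6a2 stood at 3581, 4868 and 2252 CPM, while mt-Co1, the mitochondrially encoded oxidase subunit, stood at 345, 735 and 1652 CPM. Slc25a4, the muscle adenine nucleotide carrier, stood at 6621, 8192 and 4605 CPM.

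Pax7 and Pecam1 moved with Malat1 and mitochondrial RNA. At Prox1 eGFP day 7, 9 of the 12 members with at least 10 Malat1 UMIs held Pax7 or Pecam1, against 1 of the other 98, and the median mitochondrial share was 0.766% in the 12 and 0.0126% in the 98. At day 21 the counts were 4 of 7 and 1 of 88, with medians of 1.60% and 0.165%. Depth was unlike too, with medians of 36854 UMIs in the 12 and 16706.5 in the 98 at day 7. At day 21 the medians were 7129 and 5187 UMIs. Whether the members with Pax7 or Pecam1 held more than 1 cell was not tested. The doublet caller marked none of them, but it did not work at Prox1 eGFP day 7. That library held 10 of the members with Pax7 or Pecam1, and day 21 held 5.

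**Figure D4:**
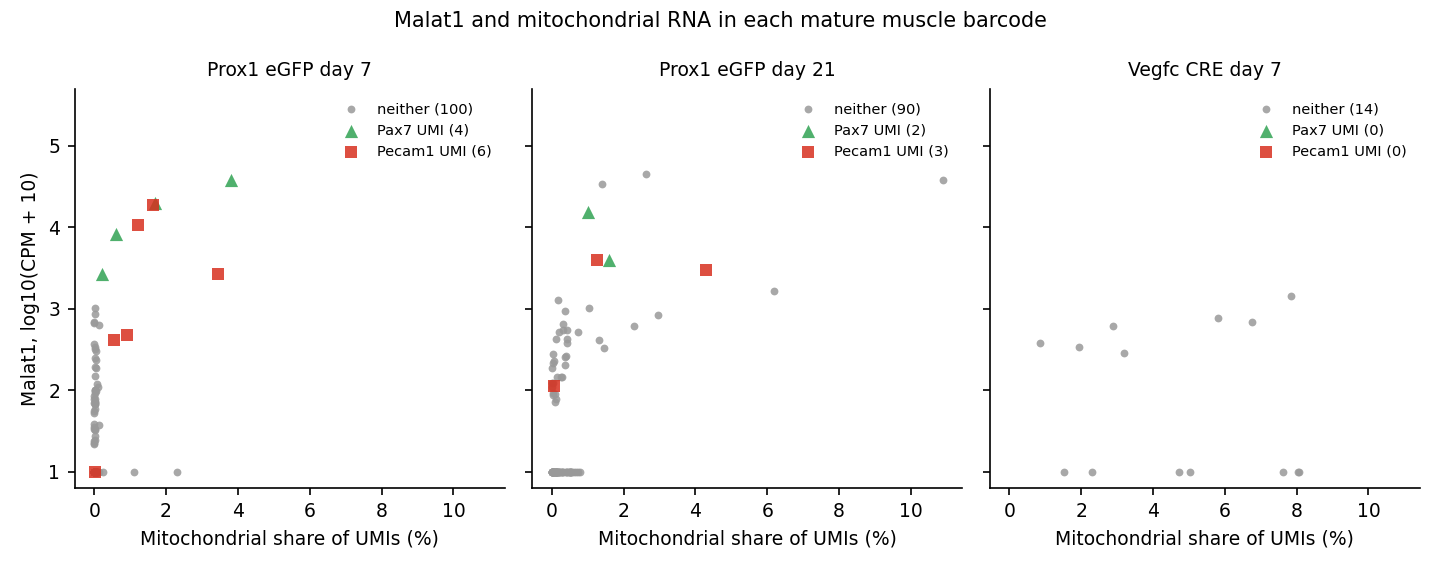
Each point is a member, with its mitochondrial share of UMIs in percent and its Malat1 level as log10(CPM + 10), by library; triangles hold a Pax7 UMI, squares a Pecam1 UMI and grey points neither. All 6 members with Pax7 and 7 of the 9 with Pecam1 had at least 10 Malat1 UMIs.

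Markers of further cell types were low, and several were at 0. Summed over the list, fibroblast genes stood at 1022, 76.3 and 801 CPM in members against 1567, 10533 and 32928 in other barcodes, and 98.7% of the Prox1 eGFP day 7 sum came from 5 members. Macrophage genes stood at 5.56, 10.7 and 400 CPM with Csf1r at 0 in all 3 libraries. Neutrophil genes stood at 5.19, 0 and 350 CPM against 44.2, 10.8 and 3967 in other barcodes. The 4 lymphocyte genes had no UMI in any member, and the 9 endothelial and 7 lymphatic genes had none in Vegfc CRE.

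Members of Prox1 eGFP day 21 were next compared with those of day 7, gene by gene, to describe how muscle RNA differed with time after injury. A gene was called when its summed level differed at least 2-fold, over genes with at least 20 UMIs in both libraries together. Of 6377 genes, 326 were called higher at day 21 (5.11%) and 909 lower (14.3%), or 19.4% either way, with a median log2 ratio of -0.09. The lower count was 480 without the members holding Pax7 or Pecam1, and a rule threshold of 20% gave 144 higher and 419 lower. With 1 library per time these calls compare 2 libraries and carry no test. The 5 rule genes chose the members, and nothing is read from their ratios.

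Part of the called genes moved in other barcodes too. Of the 326 called higher, 59 (18.1%) were also at least 2-fold higher in other barcodes at day 21, and of the 909 called lower, 71 (7.81%) were also lower there, against 2.62% and 2.68% of all genes compared. Among the 10 named higher by the size of the interval's bound, Mrpl53, Nme2, Fam89b, Rnasek, Timm23, Gng10, Atp6v0c, Schip1 and Aarsd1 were at least 4-fold higher in other barcodes as well, and Myl4 was not. Of the 10 named lower, Srp54c, Tonsl, Nxf1, Fam220a and Ptp4a1 were at least 4-fold lower in other barcodes, and Fabp4, Col1a2, Kcne1l, Col3a1 and Sln were not. The gene lists of the 2 matrices differ, and 6 of the 10 named higher and 3 of the 10 lower overlap a gene found in a single list.

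Part of the fast-fibre genes was lower at day 21 and part of the slow-fibre genes higher. Of 10 fast-fibre genes, 5 were called lower and 1 higher, with a median log2 ratio of -1.06. Of 11 slow-fibre genes compared, 6 were called higher and 0 lower, with a median of 1.13; over all genes 5.11% were called higher and 14.3% lower. The slow-fibre median was 0.42 with equal weight per member and -0.20 at a rule threshold of 20%, which leaves no slow member; the fast-fibre median was -0.50 there. Fast members were 61.8% of members at day 7 and 41.1% at day 21, and slow members 30% and 26.3%. These shares count members, whereas the ratios rest on summed UMIs, in which deeper members weigh more. Median depth was 23148 UMIs in fast and 8133 in slow members at day 7, and 5485 and 3964 at day 21. The weight of each class in the sums therefore differs from its share of members. In the sums, slow members weighed more at day 21 than at day 7, and fast members weighed less. Within fast members alone the medians were -0.59 for the fast-fibre list and 1.77 for 7 slow-fibre genes. The latter is the ratio of Tnnt1, a gene that set the classes, seen in 7 of 39 fast members at day 21. There 1 member held 61.9% of Tnnt1 UMIs. For Tnnc1 and Tpm3, each seen in 3 members, 1 member held 82.6% and 91.3%. Myl3 was seen in 13 of these members and Mybpc1 in 30.

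Actn3, the actinin of fast Z-discs, stood at 4744 CPM at day 7, 1185 at day 21 and 3754 in Vegfc CRE, 4.01-fold lower (3.74 to 4.29) at day 21. Myh4 stood at 2222, 630 and 8183 CPM and was 3.52-fold lower (3.21 to 3.88). Atp2a1, the calcium pump of the fast sarcoplasmic reticulum, stood at 4220, 1320 and 2578 CPM and was 3.20-fold lower (3.0 to 3.42). Mybpc2 and Pvalb were the other fast-fibre genes called lower, and Myh2, of the oxidative fast fibre, was the exception at 40.4 and 93.7 CPM.

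Myoz2, a calcineurin-binding protein of slow Z-discs, stood at 743 CPM at day 7, 2199 at day 21 and 350 in Vegfc CRE, 2.96-fold higher (2.77 to 3.16) at day 21. Tnni1, slow troponin I, stood at 959, 2735 and 200 CPM and was 2.85-fold higher (2.69 to 3.02). Myl3, the slow essential light chain, stood at 2510, 6991 and 651 CPM and was 2.79-fold higher (2.69 to 2.89). Tnnc1, Tpm3 and Myl2 were likewise called higher, while Tnnt1, Casq2 and Myh7 were not called. Mybpc1, the slow myosin-binding protein C, stood at 814 and 505 CPM and Atp2a2, the slow calcium pump, at 131 and 107 CPM, lower at day 21 but not called.

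Within the fast members the same lists were compared, with the caution that 10 of the genes set the classes. There, 273 of 5099 genes were called higher (5.35%) and 693 lower (13.6%). Among genes that did not set the classes, Myoz2 stood at 23.7 CPM (17.4 to 31.5) at day 7 and 582 (505 to 666) at day 21, with 46.9% of the later UMIs in 1 member. Csrp3, with 2 UMIs in 68 fast members at day 7, stood at 1.01 CPM (0.122 to 3.64) there and at 545 (471 to 627) in 39 at day 21, in 13 members and with 44.3% of UMIs in 1 of them. Fabp3, the fatty acid binding protein of oxidative muscle, stood at 232 and 1214 CPM, with 60.9% of the later UMIs in 1 member. In slow members, 162 of 2210 genes were called higher (7.33%) and 284 lower (12.9%). The slow-fibre median there was 0.38 over 10 genes, of which 1 was called higher and 3 lower. The fast-fibre median was -2.25 over 5 genes. It is the ratio of Tnni2, a gene that set the classes, with 65 UMIs at day 7 and 6 at day 21. Myl1, at -1.55, also set them, whereas Actn3 (-2.71), Atp2a1 (-3.31) and Casq1 (0.23) did not. A slow share of at least 90% was found in 9 of 33 slow members at day 7 and 23 of 25 at day 21. In mixed members, 9 at day 7 and 31 at day 21, slow forms were lower at day 21, with log2 ratios of -1.80 for Tnni1, -2.45 for Tpm3, -1.36 for Tnnt1 and -1.40 for Tnnc1, whereas Myoz2 was at 0.80 and Myl3 at 0.31.

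**Figure D5:**
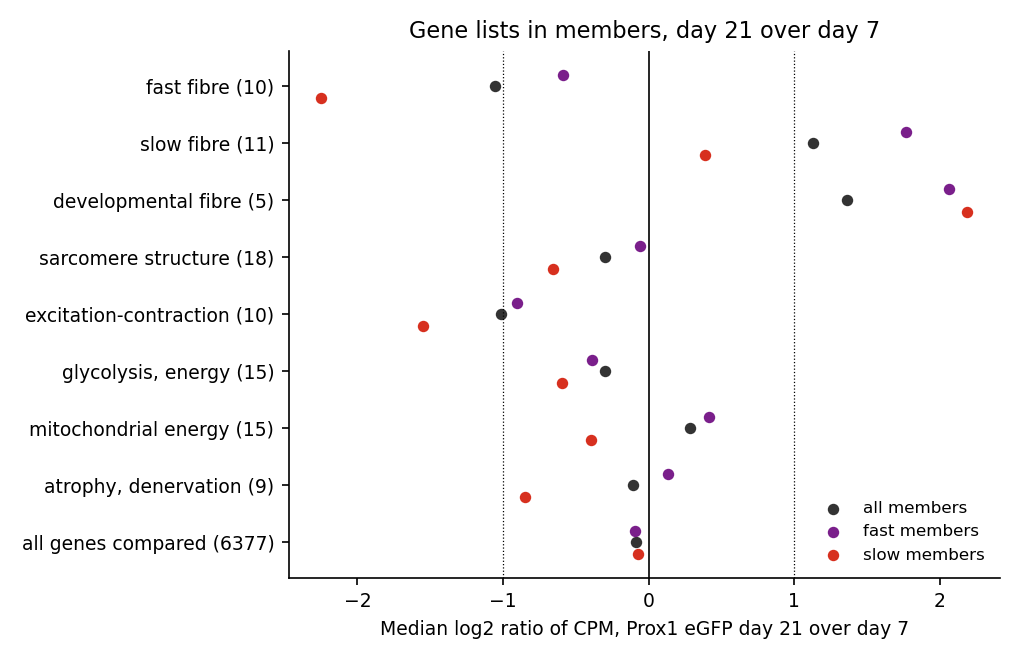
Median log2 ratio of CPM at Prox1 eGFP day 21 over day 7 for 8 gene lists and for all genes compared, with the number of genes in brackets for all members (fewer were compared within classes); black is all members, purple fast and red slow members, and dotted lines mark 2-fold. The slow-fibre list lies right of 0 in all 3 sets and the fast-fibre list left of 0. Both lists hold genes that set the classes. Mixed members are not plotted.

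Sarcomere structure genes were called in both directions. Of 18 genes, 3 were called higher and 2 lower, with a median of -0.30. Over all genes compared, 5.11% were called higher and 14.3% lower, and the same shares stand beside each list below. Csrp3 (chromosome 7, 48830398 to 48848033) was highest in ratio, at 258 CPM at day 7, 2071 at day 21 and 275 in Vegfc CRE, 8.02-fold higher (7.33 to 8.78), and it was seen in 20 of 110 and 60 of 95 members. Ankrd2, a stretch-responsive protein of the I-band, stood at 120, 572 and 50.1 CPM and was 4.76-fold higher (4.11 to 5.52). Des, the muscle intermediate filament, stood at 7898, 3365 and 5030 CPM, and Myoz1 at 3693, 1566 and 3078 CPM; both were called lower. Ttn, Neb, Tcap, Actn2 and Tpm1 differed by less than 2-fold.

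Both Csrp3 and Des kept their direction in each class. Csrp3 stood at 1541 and 3881 CPM in mixed and 422 and 2843 in slow members at days 7 and 21. Des stood at 6261 and 2377 CPM in fast, 8262 and 3377 in mixed and 16512 and 5560 in slow members.

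Calcium handling genes were lower or level at day 21. Of 10 genes of excitation-contraction coupling, 5 were called lower and 0 higher, against 14.3% and 5.11% of all genes compared. Their median was -1.02. Sln (chromosome 9, 53850164 to 53854560), or sarcolipin, which binds the calcium pump, stood at 4285 CPM at day 7, 663 at day 21 and 976 in Vegfc CRE, 6.47-fold lower (5.91 to 7.09), with UMIs in 92 of 110 and 41 of 95 members. It was lower in each class, at 3819 and 84.3 CPM in fast, 5296 and 1413 in mixed and 5853 and 862 in slow members. Ryr1, the calcium release channel, stood at 193, 66.9 and 726 CPM, and 89.7% of its Vegfc CRE UMIs came from 1 barcode. Srl, Jph2 and Cacna1s were the other calls, while Trdn, Jph1, Stac3, Hrc and Cacng1 were not called.

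Energy genes moved unevenly. Of 15 glycolysis and energy genes, 2 were called higher and 4 lower, against 5.11% and 14.3% of all genes compared. Their median was -0.30. Pygm, muscle glycogen phosphorylase, stood at 1208, 340 and 951 CPM and was 3.55-fold lower (3.13 to 4.05), and it was lower in fast, mixed and slow members alike. Ldha, Pfkm and Pkm were called lower with folds of 2.19, 2.13 and 2.11. Ckmt2, the mitochondrial creatine kinase, stood at 248, 604 and 100 CPM and was 2.44-fold higher (2.16 to 2.75). Pgk1 was called higher at 100 and 434 CPM but moved alike in other barcodes, from 34.8 to 143 CPM.

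Nuclear genes of mitochondrial energy supply gave a single call. Of 15, 1 was called higher and 0 lower, with a median of 0.29, and the median was -0.40 in slow members. The call was Fabp3, the carrier of fatty acids and no part of the respiratory chain, at 533, 1972 and 826 CPM, 3.7-fold higher (3.44 to 3.98) at day 21. The respiratory chain genes Cox6a2, Cox7a1, Cox8b, Cox5a and Cycs were higher at day 21 by ratios from 1.18 to 1.61. The ATP synthase subunits Atp5b and Atp5a1 were lower, at 1545 and 922 CPM and at 1013 and 633 CPM.

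Genes of atrophy and denervation gave 3 lower calls and no higher call among 9 compared, with a median of -0.11. Of all genes compared, 14.3% were called lower and 5.11% higher. Chrna1, the receptor subunit for acetylcholine, stood at 55.9 CPM at day 7, 6.69 at day 21 and 0 in Vegfc CRE and was seen in 41 of 110 and 5 of 95 members. Its fold of 8.36 has an interval of 3.50 to 26.1. Hdac4 and Mstn were the other lower calls, each with 3 or fewer UMIs at day 21. The ubiquitin ligases Trim63 and Fbxo32, markers of atrophy, stood at 101 and 100 CPM and at 87.8 and 99.1 CPM at days 7 and 21, and neither was called.

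Developmental genes gave 3 higher calls and 1 lower among 5 compared, with a median of 1.36; the median was -0.79 at a rule threshold of 2% and -0.96 at 20%. Myl4, the embryonic and atrial light chain, stood at 30 and 593 CPM, but 55.5% of its day 21 UMIs came from 1 member and it was seen in 12 of 95. Actc1, the cardiac actin of developing fibres, stood at 112 and 286 CPM, with log2 ratios of -0.12 in fast, -0.72 in mixed and 4.72 in slow members. Myog, a myogenic factor, stood at 13.7 and 54.9 CPM in 19 and 14 members. Immediate early genes gave 0 calls among 10 in the sums over all members, with Fos at 252 and 245 CPM and Jun at 177 and 194 CPM. Their median was 0.05 there, -0.79 over 9 genes in fast and -0.77 over 6 in slow members. Each of these 2 classes gave 1 higher and 2 lower calls. Fos was at -0.79 in fast, -0.11 in mixed and -0.81 in slow members. Atf3 was at 3.53, -2.56 and 2.10, and 64.0% of its day 7 UMIs came from 1 member.

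Several further genes were level in other barcodes and differed in members; they were singled out after their values were seen. Cryab, the small heat shock protein alpha B-crystallin, stood at 1519 CPM at day 7, 6776 at day 21 and 5556 in Vegfc CRE, 4.46-fold higher (4.28 to 4.65) at day 21, with UMIs in 109 of 110 and 93 of 95 members. Hspb6, another small heat shock protein, stood at 951, 4024 and 375 CPM and was 4.23-fold higher (4.01 to 4.46). Log2 ratios of Cryab were 1.43 in fast and 1.75 in slow members, and those of Hspb6 were 1.48 and 2.16. In other barcodes Cryab stood at 160 and 236 CPM and Hspb6 at 6.70 and 10.1 CPM.

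Endothelial and fibroblast genes were lower at day 21 in members, as were most lymphatic genes. All 7 endothelial genes compared and all 7 fibroblast genes compared were called lower, with medians of -2.54 and -3.71, and 5 of 7 lymphatic genes were. The lymphatic median was -1.45 in all members and 1.83 without the members holding Pax7 or Pecam1, and the fibroblast median was 0.92 at a rule threshold of 10%. These sums moved with few barcodes: at Prox1 eGFP day 7, 5 members held 95.9% of the endothelial and 82.9% of the lymphatic UMIs. Prox1 and Ccl21a, the lymphatic genes not called, stood at 56.7 and 66.9 CPM and at 102 and 166 CPM. Other lists went the other way or both ways. Of 7 satellite-cell genes without Des, Chodl and Myf5 were called higher, with 25 and 10 UMIs at day 21. Of 3 tendon-cell genes, Scx was called higher, at 28.5 and 60.2 CPM, and Tnmd, with 48 UMIs at day 7 and 0 at day 21, lower. Acta2, the only mural-cell gene compared, was called higher at 8.89 and 26.8 CPM.

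The 14 members of Vegfc CRE day 7 gave levels only, since fewer than 20 members were set as too few for a comparison of all genes. They held 39960 UMIs in all, against 2698966 in the day 7 members of Prox1 eGFP, and 0 UMIs allow up to 75.1 CPM. Myl1 stood at 23098 CPM, Tnni2 at 20095, Pvalb at 8033 and Aldoa at 12387. Slow forms were present at low level, with Tnnt1 at 1051, Myl3 at 651, Tnnc1 at 375 and Tpm3 at 275 CPM. The 2 mixed members held 40 of 42 Tnnt1, 19 of 26 Myl3, 15 of 15 Tnnc1 and 11 of 11 Tpm3 UMIs there. Every Tpm3 UMI there came from 1 barcode.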

How the data were processed

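Single-cell RNA was counted in 4 libraries made with the Single Cell 3′ v3 kit, per the labels' protocols. The authors deposited UMI counts per gene and barcode; Cell Ranger 5.0.1 and the build mm10 are named in the submitters' processing notes. Counting rules and barcode filters of the authors are not given in the sources used here.

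Genes were joined by identifier (27040 shared), and 0 columns went unused. The filters were 500 or more genes, 1000 or more UMIs, and mitochondrial genes below 15% of UMIs; passing barcodes with at least 5% of UMIs from the 5 rule genes became members. Members, gene lists and tests were chosen with earlier results of these data known. Sums of counts per library gave CPM and exact intervals (Python 3.11.15, numpy 2.4.6, scipy 1.17.1, pandas 2.3.3). A gene was called at a ratio of at least 2, with at least 20 UMIs over both libraries together. With 1 library per group no test was made. The comparison was tested on simulated data with 200 changed genes. Doublets were called per library with Scrublet in scanpy 1.11.5, and kept. TMM factors came from edgeR 4.0.16 (R 4.3.3) as an alternative.

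Genes named outside the lists were the 10 higher and 10 lower with the interval bound farthest from a ratio of 1, with UMIs in at least 5 members. The 15 member genes were the highest among those at least 10-fold above other barcodes in each library. Overlap with a gene of a single list was read from GENCODE M21, and upstream windows came from RefSeq. Each library is 1 sample, so intervals cover counting error only; PCR copies were merged by UMI.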

Additional observations from a re-analysis of the deposited data

Results flagged for a closer look

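Barcodes outside the filters also held mature muscle RNA. At least 5% of UMIs from the 5 rule genes was found in 5 further barcodes at Prox1 eGFP day 7, 10 at day 21 and 16 in Vegfc CRE, and the untreated library had 0. These were set aside mainly for having under 500 genes, which applied to 5, 9 and 16 of them, at median depths of 781, 874.5 and 721.5 UMIs. In Vegfc CRE, 8 of the 16 also had at least 15% mitochondrial UMIs, so that library had more muscle-rich barcodes outside the filters than the 14 inside them.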

How the results depend on the processing

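No paired analysis was possible because each group has 1 library. Leaving out a replicate was not possible for the same reason. Counting error, members of uneven weight and unlike depth limit every value; the Vegfc CRE comparison of all genes was not run, with 14 members.

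The threshold moved fibre type most, as it leaves out slow barcodes. At 2%, 10% and 20% Myh4 made 84.5%, 90.5% and 98.0% of Myh UMIs at Prox1 eGFP day 7 and 51.8%, 66.4% and 83.7% at day 21. At 10% the slow class was 4.0% and 14.5% of members, and the slow-fibre median was 2.21. At 20% there were 29, 21 and 2 members, slow members and Pax7 were at 0 at both times and Pecam1 was at 0 at day 21. Myh4 made 100% in Vegfc CRE at that threshold, 144 genes were called higher and 419 lower, the fast-fibre median was -0.50 and the slow-fibre median turned to -0.20. Medians of minor lists also turned: developmental genes to -0.79 at 2% and -0.96 at 20%, lymphatic to 0.0070 and mural to -1.94 at 2%, and fibroblast to 0.92 at 10%.

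With a mitochondrial limit of 10%, Myh4 was 62.5% at day 21. At least 2000 UMIs left 7 members in Vegfc CRE. With equal weight per member, the slow-fibre median was 0.42 and the lymphatic one 0.092. Myh4 then made 69.2%, 38.9% and 46.9% over the members with at least 5 Myh UMIs. A minimum of 5 UMIs called 1000 genes higher and 1457 lower, and one of 50 UMIs 163 and 366. Without members holding Pax7 or Pecam1, 480 genes were called lower and the lymphatic median was 1.83. Thinned to 1000 UMIs, Pax7 was at 0 and Pecam1 at 0.909% at day 7, and Pecam1 was at 0 at 2000 UMIs.

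The following were chosen after seeing the data. In fast members the medians were -0.59 (fast list), 1.77 (slow list) and 0.35 (lymphatic). In slow members they were -2.25 and 0.38, with 162 genes higher and 284 lower. In members with under 10 Malat1 UMIs they were -0.91, 1.00 and 1.55, with 490 genes lower; Pax7 was at 0 at both times, Pecam1 at 1.02% at day 7 and Myh4 at 63.0% at day 21. Of all values recomputed for these main results, 179 stayed within the interval of the reported value or, for counts, within 1.5 times of it, 48 moved beyond that and 1 turned. TMM factors, UMIs outside the rule genes, each library's own gene list, doublet calls left out and genes overlapping a gene of a single list changed neither count of called genes by over 1.5 times.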

Other observations

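Members shared rare genes unevenly. At Prox1 eGFP day 7, 1000 genes were seen in exactly 2 members, and the 2 members with Col1a1, Dcn and Tnmd RNA shared 136 of them, out of 238 and 251 that each held. The next pair shared 28.

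Genes of specialised nuclei were seen in few members. Musk, the muscle-specific kinase of the synapse, had 27 UMIs in 18 members at Prox1 eGFP day 7, 2 UMIs at day 21 and 0 in Vegfc CRE. Chrne, the adult receptor subunit, had 17 UMIs in 7 members at day 7, 58.8% of them in 1 member, and 0 in both other libraries. At day 7 Musk stood at 10.0 CPM and Chrne at 6.30. For both genes the 0 in Vegfc CRE allows up to 75.1 CPM, so it cannot show a lower level there. Ankrd1, a stress-responsive protein of the sarcomere, stood at 13.0, 57.6 and 100 CPM.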
